A study of Mus musculus with 7 samples.

Results

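Semaphorins, plexins and neuropilins are the ligands and receptors of one guidance system, and their RNA was followed here in mouse cortex after a ketogenic diet (KD) or a control diet (CD, labelled SD). Members were taken by gene symbol, as all genes named Sema followed by a digit, all Plxna, Plxnb, Plxnc and Plxnd genes, and Nrp1 and Nrp2. This gave 31 of the 23413 symbols counted: 20 semaphorins, 9 plexins and 2 neuropilins. All 31 passed the filter on low counts and were tested. Cortex RNA came from 4 mice on CD and 3 on KD. The diets began at 6 months of age and lasted 7 months, so that all mice were sampled at 13 months. Carbohydrate, protein and fat supplied 74%, 10% and 16% of the energy in CD, against less than 0.5%, 10% and 90% in KD. By the study's methods all mice of both diets were APP/PS1 mice, B6.Cg-Tg(APPswe,PSEN1dE9)85Dbo/Mmjax, which carry mutant human transgenes for the amyloid precursor protein and presenilin and serve as a model of amyloid deposition. There was no wild-type cortex library here, the sex of each mouse was not given in the sources used here, and each library stood for 1 mouse.

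Semaphorins are secreted or membrane-bound proteins that steer growing axons and, in the adult brain, act on dendritic spines, synapses, vessels and myelinating cells. Plexins are their signalling receptors, whose cytoplasmic part switches off the small GTPase Rap. Most class 3 semaphorins, which are secreted, cannot bind a plexin alone and need a neuropilin as co-receptor, whereas classes 4 to 7 are membrane-bound and mostly bind plexins directly.

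Start regions are shown for 3 members: Sema5a, which had the smallest p-value between the diets, and Sema7a and Plxnc1, a ligand and its receptor that stood far apart in one KD library. The sequences are the 250 bases before the RefSeq start (GRCm38.p6), 5′ to 3′ on the gene's strand, at chr15:32244563-32244812 (+) for Sema5a, chr9:57939862-57940111 (+) for Sema7a and chr10:94944846-94945095 (−) for Plxnc1. Capitals mark the GC box, GGGCGG on either strand, including copies that overlap each other.
Sema5a: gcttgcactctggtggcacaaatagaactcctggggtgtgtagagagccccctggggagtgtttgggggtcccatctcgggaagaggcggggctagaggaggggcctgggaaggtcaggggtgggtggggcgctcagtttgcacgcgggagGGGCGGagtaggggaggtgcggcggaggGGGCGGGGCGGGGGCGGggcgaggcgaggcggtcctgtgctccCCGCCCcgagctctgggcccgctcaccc
Sema7a: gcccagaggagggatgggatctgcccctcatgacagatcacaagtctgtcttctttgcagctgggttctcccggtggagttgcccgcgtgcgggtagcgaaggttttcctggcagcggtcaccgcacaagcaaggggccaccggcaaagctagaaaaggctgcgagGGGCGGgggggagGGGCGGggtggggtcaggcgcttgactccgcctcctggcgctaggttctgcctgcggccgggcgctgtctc
Plxnc1: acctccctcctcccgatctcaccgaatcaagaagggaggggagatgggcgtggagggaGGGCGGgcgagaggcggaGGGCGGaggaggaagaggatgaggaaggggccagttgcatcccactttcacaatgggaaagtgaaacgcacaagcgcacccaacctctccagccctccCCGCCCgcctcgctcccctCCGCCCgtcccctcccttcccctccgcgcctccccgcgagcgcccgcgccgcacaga
The Sema5a region held 5 GC boxes, the Sema7a region 2 and the Plxnc1 region 4. They had 17, 17 and 22 CG pairs, against a median of 6 over all 32851 RefSeq regions of the same length. Regions were matched for 26 of the 31 members, 37 regions in all, and the GC box was in 27 of them (73.0%), against 32.7% of all regions. TATAAA was in 0 of the 37 against 12.4% of all regions, the CRE half-site TGACG in 1 (2.70%) against 17.8%, and the E-box CACGTG in 2 (5.41%) against 6.02%. All 4 motifs were searched on both strands, and a match of letters is a description, not a binding site.

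RNA levels between genes were compared as CPM per kilobase of merged exons (CPM per kb, mm10, GENCODE M21), while levels between libraries are CPM, a gene's count scaled to the library total. Sema7a, a lipid-anchored semaphorin that binds plexin C1 and integrins, had the highest level per kb at 50.3 ± 13.4 CPM per kb on CD (SD, n = 4) and 35.9 ± 19.4 on KD (SD, n = 3). Plxnc1 followed with 14.2 CPM per kb over the 7 libraries, then Plxna4 (13.5), Sema6b (13.5) and Plxna2 (12.2). The ranges over libraries of these 4 overlapped one another, so their order was not resolved. The Sema7a range, 14.1 to 66.9 CPM per kb, overlapped theirs only through KD replicate 3. Among the plexins, the A group held the 2 next highest genes after Plxnc1, and Plxna3 was the lowest of all 9 with 2.80 CPM per kb. Nrp1, the co-receptor of Sema3A and of VEGF, averaged 7.94 CPM per kb and Nrp2, that of Sema3F, averaged 3.57. The lowest members were Sema3b (0.73 CPM per kb), Sema4g (0.80) and Sema3f (0.94), all with counts in every library.

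**Figure D1:**
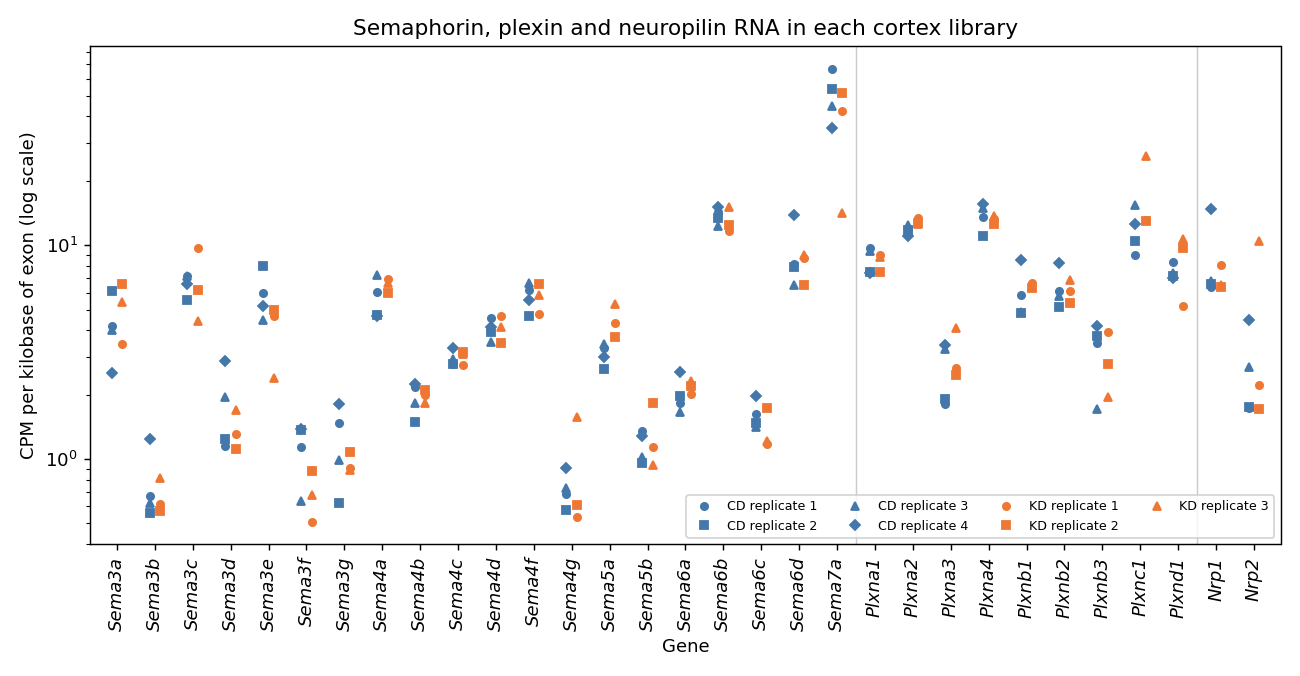
RNA level of each of the 31 genes (x axis) in CPM per kilobase of merged exons (y axis, log scale) in the 4 CD (blue) and 3 KD (orange) libraries, one marker shape per replicate number, with lines between semaphorins, plexins and neuropilins. Sema7a lies above the other genes except in KD replicate 3, at 14.1 CPM per kb.

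Between the diets, the guidance genes were split between higher and lower, and one member, Sema5a, passed a raw p of 0.05. Of the 31 genes 17 were higher and 14 lower on KD, 54.8% higher against 49.0% of all 15881 tested genes. Their median log2 fold change was 0.02, against -0.00 over all tested genes. After Benjamini-Hochberg adjustment of edgeR's quasi-likelihood p-values over all tested genes, 0 of the 31 passed an adjusted p of 0.05, the same as the 0.0% of all tested genes that did. Before adjustment 506 genes were under 0.05. DESeq2 also called 0 genes after adjustment, and the likelihood-ratio test of edgeR called 1, which was no member. At the raw threshold of 0.01 that the study used, 1 of 31 members passed (3.23%), against 51 genes or 0.321% of all tested. At a raw p under 0.05 the same 1 member passed, against 3.19% of all tested genes. The smallest two-sided p that an exact permutation of 4 against 3 libraries can give is 0.0571, so this test cannot go below 0.05 here.

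Sema5a, on chromosome 15 (32244810 to 32696341, + strand), encodes a transmembrane semaphorin with thrombospondin repeats that binds plexins of the A group and plexin B3. It had 61.8, 49.4, 64.1 and 56.2 CPM in CD replicates 1 to 4, and 81.1, 69.2 and 98.9 CPM in KD replicates 1 to 3. Every KD library lay above every CD library. The level was 44.2% higher on KD, a log2 fold change of 0.53 (SE 0.13, 95% interval 0.23 to 0.83), with a raw p of 0.00339 and an adjusted p of 0.979 in edgeR's test. It ranked 10 by raw p among all tested genes, and the exact permutation test gave 0.0571, the smallest possible. With KD replicate 3, its highest library, left out, the log2 fold change was 0.40 with a raw p of 0.0135, over the study's threshold. Its adjusted p was at least 0.574 in every alternative.

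Sema5a is known from cells of the oligodendrocyte lineage, and the markers of these cells varied between libraries. The 6 markers of oligodendrocyte precursors summed to 153, 141, 137 and 212 CPM on CD and to 164, 139 and 226 CPM on KD, overlapping between the diets, and 5 of the 6 were higher on KD with none past a raw p of 0.05. The 10 markers of mature oligodendrocytes were all lower on KD, also with none past 0.05, and summed to 1131 to 4358 CPM on CD and 1174 to 4244 CPM on KD. None of these markers was at 0 in any library. The highest precursor sum and the highest Sema5a level were both in KD replicate 3, whereas CD replicate 4 had the second highest precursor sum and a Sema5a level within the CD range. The part of either cell type in the Sema5a difference was not tested, and in bulk tissue fewer cells of a type and less RNA per cell cannot be told apart. Its relative Sema5b, a class 5 semaphorin that repels retinal axons, was at 8.16 ± 1.37 CPM on CD (SD, n = 4) and 9.20 ± 3.26 on KD (SD, n = 3), with an edgeR raw p of 0.451.

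**Figure D2:**
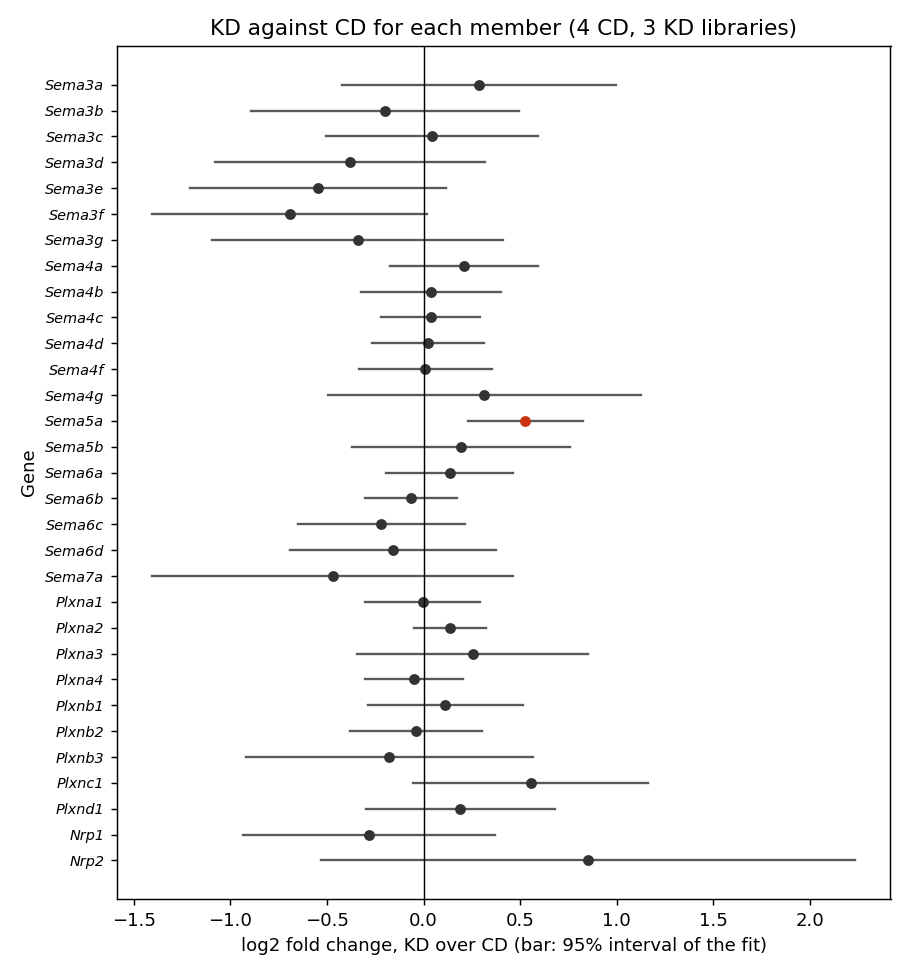
Log2 fold change of KD over CD (x axis) for each member (y axis), with the 95% interval of the edgeR fit as a bar; red marks the gene with a raw p of at most 0.01. The interval of Sema5a, 0.23 to 0.83, is the one that does not cross 0.

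The 3 other members known from the oligodendrocyte lineage had raw p-values above 0.05, and their 95% intervals included 0. Sema4d, the class 4 ligand of plexin B1, had 35.1, 30.3, 26.9 and 31.9 CPM on CD and 35.6, 26.7 and 31.7 CPM on KD, a log2 fold change of 0.02 (95% interval -0.27 to 0.31). Sema6a, a transmembrane ligand of plexins A2 and A4, had 16.1, 17.4, 14.6 and 22.3 CPM on CD and 17.7, 19.2 and 20.4 CPM on KD, and a log2 fold change of 0.13 (95% interval -0.19 to 0.46). The diets overlapped for both genes. Plxnb3, on chromosome X (73757090 to 73772514), encodes a receptor for Sema5A. It had 22.7, 24.5, 11.1 and 27.2 CPM on CD and 25.5, 18 and 12.6 CPM on KD, a log2 fold change of -0.18 (95% interval -0.92 to 0.56). CD replicate 3 and KD replicate 3 were low in Plxnb3, one on each diet. The same 2 libraries had the lowest sums of the 10 oligodendrocyte markers, 1131 and 1174 CPM, against 2181 CPM in KD replicate 2 and 3784 to 4358 CPM in the other four. The part of oligodendrocyte RNA in the Plxnb3 values was not tested.

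Plxna2, a receptor for class 3 and class 6 semaphorins on chromosome 1 (194618218 to 194816869), was the second gene whose CPM ranges did not overlap. It had 203, 203, 213 and 190 CPM on CD and 230, 217 and 215 CPM on KD. The 3 KD values lay just above the highest CD value. The difference was small, a log2 fold change of 0.14 (95% interval -0.05 to 0.32, edgeR raw p 0.128), and the ranges overlapped once libraries were scaled by TMM. Together with Sema5a it made 2 of 31 members (6.45%) without overlap, both higher on KD, against 4.2% of all tested genes. The other plexins of the A group mediate class 3 signals with a neuropilin, and Plxna4, the most abundant of them, had 191, 155, 211 and 220 CPM on CD and 188, 176 and 193 CPM on KD. Its log2 fold change was -0.05 (95% interval -0.30 to 0.20), and those of Plxna1 and Plxna3 were -0.00 (-0.30 to 0.29) and 0.25 (-0.35 to 0.85).

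In the B group, whose members also bind the receptor kinases Met and ErbB2 and signal through RhoA, Plxnb2 and Plxnb1 had nearly the same level per kb, 6.23 and 6.19 CPM per kb over the 7 libraries, with overlapping ranges. Plxnb2 had 47.1, 39.8, 44.6 and 63.7 CPM on CD and 47.0, 41.3 and 52.9 CPM on KD, a log2 fold change of -0.04 (95% interval -0.38 to 0.30). Plxnb1, the receptor of Sema4D, stood at 57.7 ± 16.5 CPM on CD (SD, n = 4) and 61.7 ± 1.70 on KD (SD, n = 3), with a log2 fold change of 0.11 that became 0.30 (raw p 0.0172) without CD replicate 4. With each library left out in turn, the Plxnb1 value ran from 0.03 to 0.30. CD replicate 4 was the highest library for all 3 genes of the group. Plxnd1, the direct receptor of Sema3E on vessels and neurons, had 60.6, 52.6, 53.9 and 51.5 CPM on CD and 38.0, 70.6 and 77.6 CPM on KD. KD libraries lay on both sides of the CD range, with a log2 fold change of 0.19 (raw p 0.397) that became 0.44 (raw p 0.00358) without KD replicate 1. With each library left out in turn, the Plxnd1 value ran from 0.01 to 0.44.

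Sema7a and its receptor Plxnc1 moved apart in KD replicate 3. Sema7a, on chromosome 9 (57940112 to 57962865, + strand), had 221, 178, 148 and 117 CPM on CD and 139, 170 and 46.6 CPM on KD. Plxnc1, on chromosome 10 (94790866 to 94944835, − strand), had 74.8, 87.6, 129 and 105 CPM on CD and 110, 108 and 217 CPM on KD. KD replicate 3 was the lowest library for the ligand and the highest for the receptor, while the other KD libraries lay within the CD range for both. Per kb, Sema7a exceeded Plxnc1 by 2.81 to 7.47 times on CD and by 3.20 and 3.97 times in KD replicates 1 and 2, but reached only 0.543 times its level in KD replicate 3. Neither gene passed a raw p of 0.05: Sema7a had a log2 fold change of -0.47 (SE 0.41, 95% interval -1.41 to 0.46, edgeR raw p 0.281) and Plxnc1 one of 0.56 (SE 0.27, 95% interval -0.05 to 1.16, edgeR raw p 0.0683). Without KD replicate 3 they were -0.09 and 0.16. The Plxnc1 raw p was 0.0328 without CD replicate 3, 0.0393 without KD replicate 1 and 0.0365 without KD replicate 2. It was 0.0494 with the likelihood-ratio test, 0.041 with DESeq2 and 0.00115 with Xist as covariate, under which Sema7a had a raw p of 0.0032. With that covariate the share of all tested genes at or under 0.01 also rose, to 1.31% from 0.321% in the main test.

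Lists of neuronal markers placed KD replicate 3 differently. The 6 cortical neuron markers summed to 4882 to 6183 CPM on CD, to 5571 and 5796 CPM in KD replicates 1 and 2 and to 4266 CPM in KD replicate 3. The 6 parvalbumin interneuron markers summed to 378 to 471 CPM on CD and to 363, 361 and 251 CPM on KD. Among the former 2 of 6 and among the latter 1 of 6 were under a raw p of 0.05, all lower on KD, and none was at 0 in any library. KD replicate 3 was the lowest library in both of these sums. Of the cortical neuron markers, Snap25 (3087 CPM), Rbfox3 (78.2 CPM), Neurod6 (44.0 CPM) and Emx1 (3.01 CPM) were lowest there. Slc17a7 (600 CPM) lay within the CD range, and Gad1 (454 CPM) was lower in the other KD libraries. Of the parvalbumin interneuron markers, Pvalb (18.6 CPM), Syt2 (14.6 CPM), Kcnc2 (160 CPM) and Cox6a2 (1.44 CPM) were lowest there. Tac1 (35.5 CPM) and Lhx6 (20.6 CPM) were highest there. The sum of the 7 markers of deep cortical layers in KD replicate 3 was the highest, at 350 CPM against 261 to 324 CPM in the others. Within that list the markers also went opposite ways. Bcl11b (112 CPM), Crym (94.6 CPM) and Rprm (43.3 CPM) were highest in KD replicate 3, but Fezf2 (7.95 CPM), Tle4 (59.9 CPM) and Syt6 (12.8 CPM) were lowest there. Its sum of the 5 markers of upper layers was 431 CPM, inside the range of 330 to 654 CPM of the others. The part of these cell types in the Sema7a and Plxnc1 values was not tested.

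**Figure D3:**
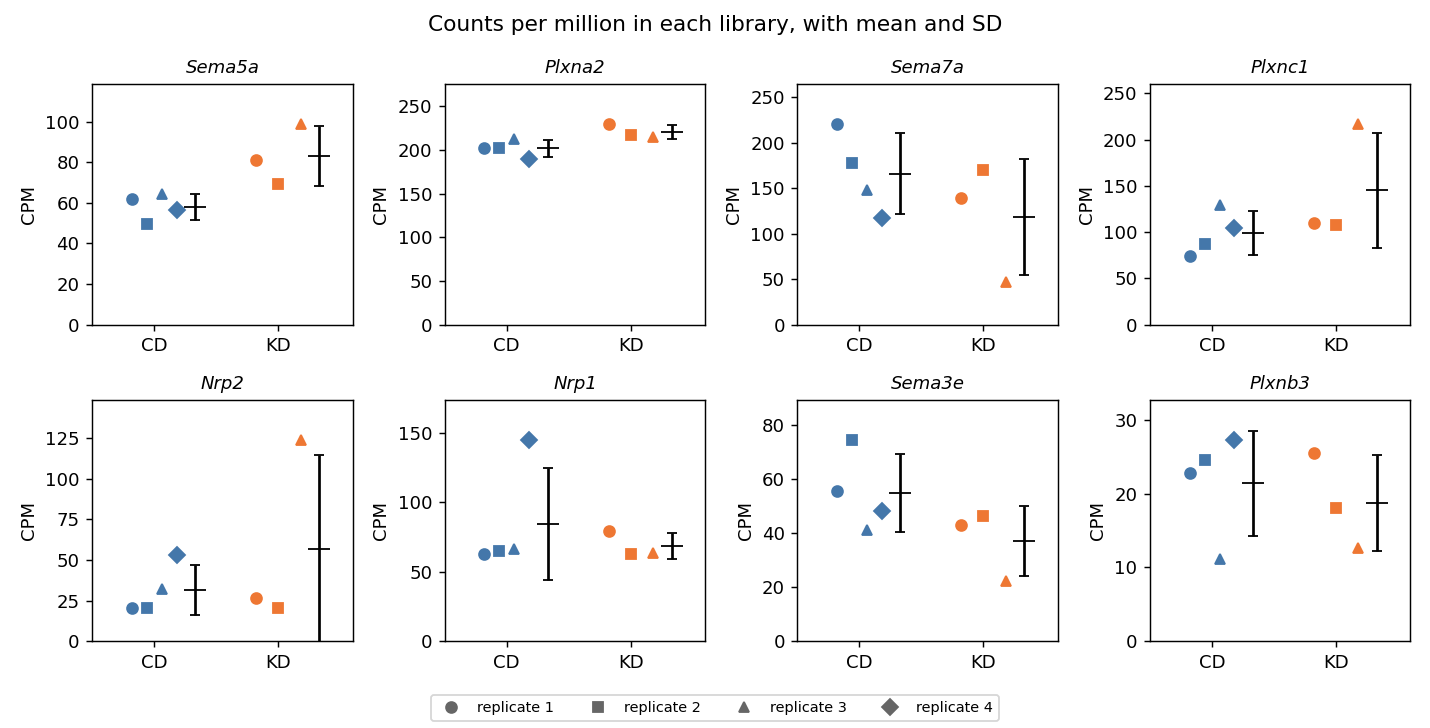
CPM (y axis, from 0) of 8 members in each CD (blue) and KD (orange) library, with the mean and SD of each diet in black (n = 4 and 3; the lower end of the Nrp2 KD bar is below 0 and not shown). Sema5a and Plxna2 do not overlap between the diets, and KD replicate 3 (triangle) is the lowest Sema7a and Sema3e library and the highest for Plxnc1 and Nrp2.

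Class 3, the secreted ligands, had 5 of 7 genes lower on KD with a median log2 fold change of -0.34, and none past a raw p of 0.05. Sema3c, the most abundant of them per kb and a ligand that can also attract axons, had 51.1, 39.4, 51.4 and 47.1 CPM on CD and 69.1, 44.1 and 31.5 CPM on KD, so that the KD libraries spread to both sides of CD. Values of Sema3a, Sema3e and Sema3f in each library were added after they were seen. Sema3a, which collapses growth cones through Nrp1 and plexins of the A group, had 58.4, 84.8, 55.7 and 35.1 CPM on CD and 47.8, 90.9 and 74.8 CPM on KD (log2 fold change 0.29, 95% interval -0.42 to 1.0). Sema3e, which signals through plexin D1 without a neuropilin, had 55.7, 74.4, 41.3 and 48.3 CPM on CD and 43.1, 46.3 and 22.3 CPM on KD. Its log2 fold change was -0.55 (95% interval -1.21 to 0.12, edgeR raw p 0.0937), and -0.28 without KD replicate 3, its lowest library. The edgeR raw p of Sema3e was at or under 0.01 with a replicate block and with Xist as covariate. In these settings 1.16% and 1.31% of all tested genes were at or under 0.01. Sema3f, which acts through Nrp2 and prunes axons and spines, had 5.93, 7.09, 3.29 and 7.18 CPM on CD and 2.65, 4.55 and 3.55 CPM on KD. The single CD library inside the KD range was CD replicate 3. The log2 fold change of Sema3f was -0.69 (95% interval -1.41 to 0.02, edgeR raw p 0.0548), and -0.89 (raw p 0.00738) without that library and -0.92 (raw p 0.0328) without KD replicate 2. With each library left out in turn, the Sema3f value ran from -0.92 to -0.52. The remaining 3 genes of the class, Sema3b, Sema3d and Sema3g, had levels from 2.68 to 24.6 CPM, with log2 fold changes of -0.20, -0.38 and -0.34.

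The co-receptors of class 3 each had 1 library far above the others, and Nrp2 also ran from 20.3 to 52.7 CPM outside that library. Nrp1, on chromosome 8 (128358604 to 128503363), had 62.6, 64.6, 66.2 and 145 CPM on CD and 79.2, 62.6 and 63.8 CPM on KD. CD replicate 4 stood far above the other CD libraries. The log2 fold change was -0.28 (95% interval -0.93 to 0.37) and 0.08 without that library. Nrp2, on chromosome 1 (62703285 to 62818695), had 20.5, 20.7, 31.9 and 52.7 CPM on CD and 26.3, 20.3 and 124 CPM on KD, values added after they were seen. Here KD replicate 3 was the high library, and CD replicate 4 the second. The log2 fold change of Nrp2 was 0.85 (SE 0.61, 95% interval -0.53 to 2.24), the largest of the 31 in size, and -0.40 without KD replicate 3. In these 2 libraries, summed markers of other tissue were also high. The 7 markers of meningeal fibroblasts summed to 343 CPM in CD replicate 4 and 164 CPM in KD replicate 3, against 52.3 to 102 CPM in the other five. Dcn, at 73.7 CPM, was the largest part of the sum in KD replicate 3. Col1a2 (14.7 CPM) was lower there than in CD replicate 3 (17.9 CPM). Col1a1, Igf2, Slc6a13, Foxc1 and Ogn were second there to CD replicate 4. The 4 markers of the olfactory bulb summed to 64.4 CPM in CD replicate 4 and 16.4 CPM in KD replicate 3, against 3.42 to 8.79 CPM in the other five. In KD replicate 3 the olfactory sum came mostly from Cdhr1, at 12.9 CPM. There Th (0.943 CPM) lay below every CD library, and Doc2g (2.11 CPM) and Eomes (0.404 CPM) lay within the CD range. All 7 and all 4 were lower on KD, 1 of the olfactory markers with a raw p under 0.05, and none was at 0 throughout either diet. Whether tissue outside the cortex contributed to the Nrp1 and Nrp2 values was not tested.

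**Figure D4:**
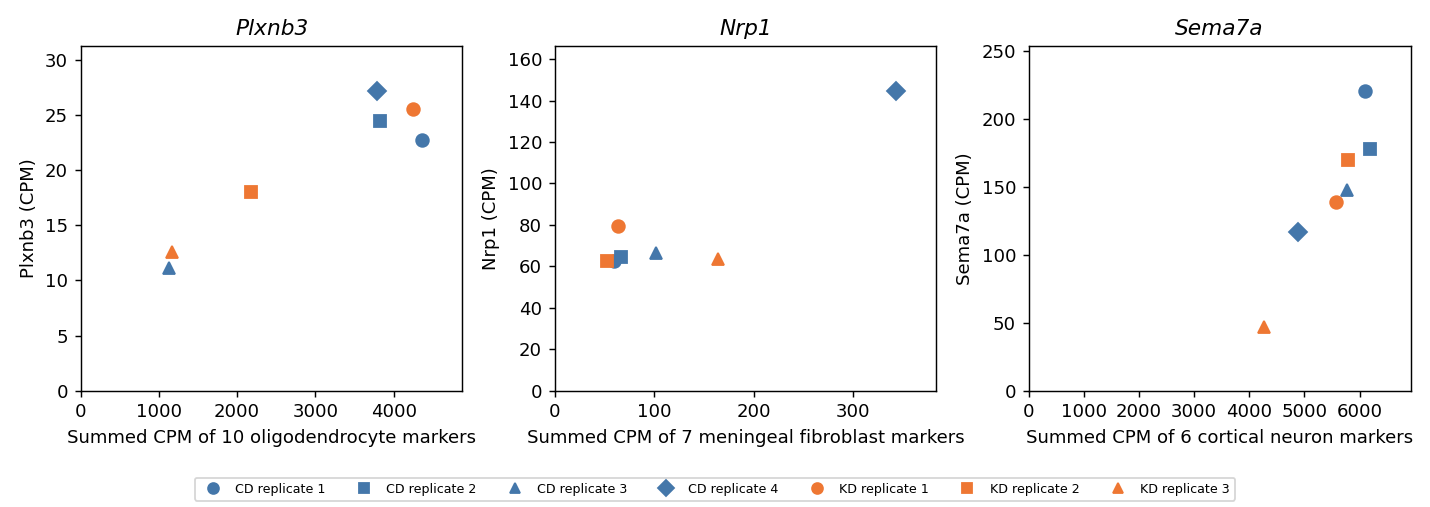
Each panel plots CPM of one gene (y axis) against the summed CPM of a marker list (x axis) in the 7 libraries, both from 0, with one symbol per library: Plxnb3 with 10 oligodendrocyte markers, Nrp1 with 7 meningeal fibroblast markers, Sema7a with 6 cortical neuron markers. The 2 libraries low in Plxnb3 are the 2 low in oligodendrocyte markers, and CD replicate 4, high in Nrp1, is the highest in meningeal markers.

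Class 4 holds membrane-bound ligands, mostly of the B plexins. All 6 genes had log2 fold changes above 0 in the main test, from 0.01 to 0.31 with a median of 0.04. None was past a raw p of 0.05. The sign of Sema4f, at 0.01, turned with scaling by library size alone (-0.00). Those of Sema4b, Sema4c, Sema4d and Sema4g also turned in at least 1 alternative, and only that of Sema4a held in all 19. Sema4a, the most abundant per kb and known also from immune cells, had 32.6, 25.5, 39.4 and 25.2 CPM on CD and 37.6, 32.2 and 36.1 CPM on KD, a log2 fold change of 0.21 (95% interval -0.17 to 0.59), and 0.36 (raw p 0.0314) without CD replicate 3. With each library left out in turn, the Sema4a value ran from 0.11 to 0.36. Sema4c, a ligand of plexin B2, differed by 1.21 times between its highest and lowest library, the least of all 31 members. Sema4g varied most in the class, with 13.6 CPM in KD replicate 3 against 4.66 to 7.89 CPM in the others.

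Class 6, transmembrane ligands of the A plexins, had 1 of 4 genes higher on KD and none past a raw p of 0.05. Sema6b, the most abundant per kb, had 56.9, 53, 48.9 and 59.6 CPM on CD and 46.4, 49.5 and 59.7 CPM on KD, a log2 fold change of -0.06 (95% interval -0.30 to 0.17). Sema6d, a ligand of plexin A1, had 146 CPM in CD replicate 4 against 68.7 to 95.3 CPM in the other six, a value added after it was seen. Sema6c was at 9.62 ± 1.5 CPM on CD (SD, n = 4) and 8.16 ± 1.84 on KD (SD, n = 3), a log2 fold change of -0.22 that became -0.44 (raw p 0.045) without KD replicate 2. With each library left out in turn, the Sema6c value ran from -0.44 to -0.12.

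The members spread widely between libraries. The median ratio of highest to lowest library was 2.04 over the 31 members and 1.46 over the 14140 tested genes with a mean of at least 1 CPM. It was above 2 for 17 of the 31 (54.8%) and for 22.8% of those genes. Nrp2 had the largest ratio at 6.09, then Sema7a at 4.74 and Sema3e at 3.34. CD replicate 4 was the highest library for 14 of the 31 members, while 25.3% of all tested genes had their highest value there. KD replicate 3 was the highest for 7 (22.9% of all tested genes) and CD replicate 2 the lowest for 8 (17.6%). No test was made of these counts. Totals were 22272883 to 36614954 counts per library, so that counting error was small beside this spread for all but the lowest members.

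**Figure D5:**
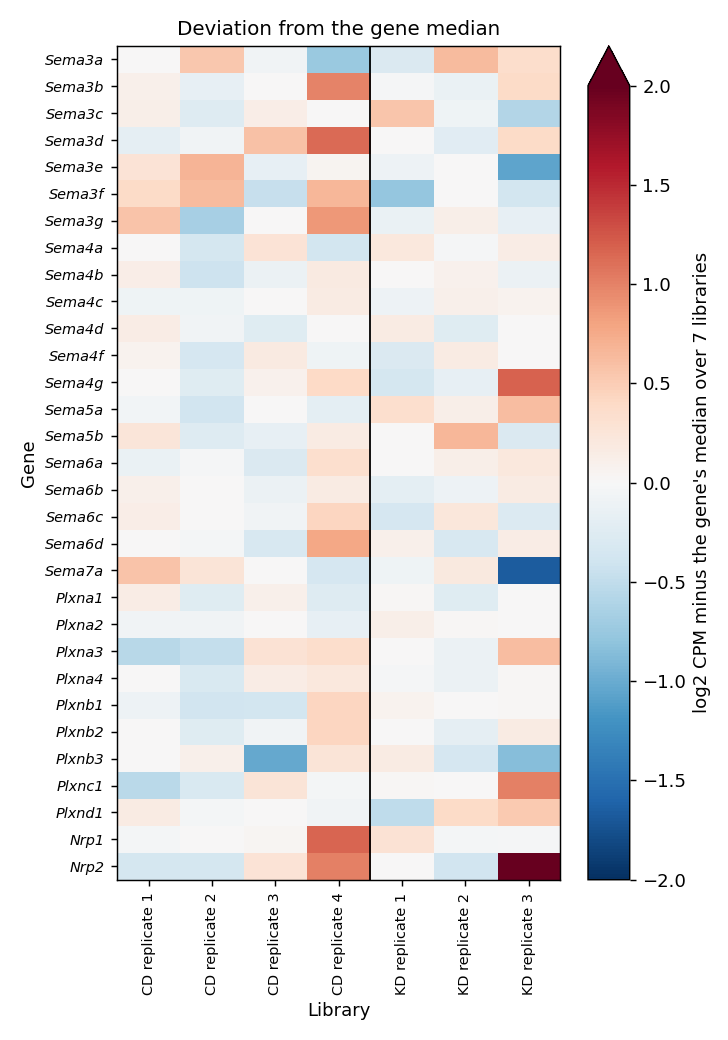
Log2 CPM of each member (rows) in each library (columns; the line separates CD from KD) minus the gene's median over the 7 libraries, red above and blue below; the colour scale ends at 2 on the log2 scale, and Nrp2 in KD replicate 3 is beyond it. CD replicate 4 holds the highest value for 14 genes, and KD replicate 3 is low in Sema7a and Sema3e and high in Nrp2 and Plxnc1.

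The rest of the pathway was followed in 3 lists, of co-receptors, other neuropilin ligands and intracellular effectors. Of 56 listed genes 54 were tested, 29 were higher and 25 lower on KD, and the median log2 fold change was 0.01. None had a raw p of at most 0.01 and 1 was under 0.05 (1.85%, against 3.19% of all tested genes). That gene was Met, the receptor of hepatocyte growth factor, which forms complexes with B plexins. Met had 11.3, 13.2, 10.4 and 16.6 CPM on CD and 16.1, 17.2 and 28.4 CPM on KD. CD replicate 4 lay within the KD range, and KD replicate 3 was the highest library. The log2 fold change was 0.68 (SE 0.22, 95% interval 0.17 to 1.19, edgeR raw p 0.015, adjusted p 0.979), and 0.39 with a raw p of 0.066 without KD replicate 3.

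The 15 co-receptors tested, among them adhesion molecules and Met, had 9 higher and 6 lower, with a median of 0.02. The most abundant per kb was Tyrobp, an adaptor of microglia that joins Trem2 and plexin A1, at 88.6 CPM per kb, with a log2 fold change of 0.25 (95% interval -0.42 to 0.92). Of the 4 other neuropilin ligands, the vascular endothelial growth factors and their relatives, 1 was higher and 3 were lower, and Vegfa, the most abundant, had a log2 fold change of -0.13 (95% interval -0.33 to 0.07). The 35 effectors tested, which carry the signal to the cytoskeleton, had 19 higher and 16 lower with a median of 0.01. Dpysl2, which encodes CRMP2, a mediator of Sema3A signals on microtubules, was the most abundant of these per kb at 224 CPM per kb, with a log2 fold change of -0.05 (95% interval -0.23 to 0.13). One effector, the small GTPase gene Rap1b, had ranges that did not overlap, 75.5 to 80.6 CPM on CD and 81.4 to 96.4 CPM on KD, 1.85% of the 54 against 4.2% of all tested genes; it was named after its values were seen.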

How the data were processed

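Read quality was checked by the authors in FASTQC, alignment to mm10 was by STAR, and genes were counted by the HTSeq mode within STAR. The deposited values are raw counts per gene symbol, one file per mouse, neither normalized nor pooled. Libraries were paired 50-base reads of ribosome-depleted total RNA from a stranded kit. The versions, annotation and strand setting are not given in the sources used here, and reads of overlapping or antisense genes may therefore be shared. No member overlaps a protein-coding gene in GENCODE M21, but other genes overlap some members. Those with a value here, Mir1903 at Nrp1 and 4930517E11Rik and 4930583P06Rik at Sema6d, reached at most 0.470 CPM. For the others, among them 4930465K09Rik opposite Sema5a, no value is given here.

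Groups and replicate numbers came from the labels. KD was tested against CD with edgeR 4.0.16 in R 4.3.3 (filterByExpr, TMM, glmQLFit with robust=TRUE, glmQLFTest, no covariate), with Benjamini-Hochberg adjustment over 15881 genes. The procedure was tested on simulated data. Replicates are separate mice, and the intervals are those of the fit. Totals of 22272883 to 36614954 counts put 3 counts at 0.0819 to 0.135 CPM. CPM was taken by library total, and levels per kb use merged GENCODE M21 exons. Promoters were read from RefSeq, and no protein sequence was used here.

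The members and gene lists were chosen with earlier results of these data known. Values in each library were given for members with a raw p under 0.05, without overlap between diets, on the oligodendrocyte lineage list, most abundant per kb in their class or past Dixon's critical value on CD; other members are named by class, and pathway genes where their raw p is under 0.05 or as the most abundant of their list. The alternatives were RLE, upper-quartile and library-size scaling, 2 other filters, the likelihood-ratio test, DESeq2 1.42.0, limma-voom (limma 3.58.1), robust=FALSE, a replicate block, the Xist level as covariate, and each library left out in turn. The block was fitted on replicates 1 to 3 of each diet, so CD replicate 4 was left out of it. One more, without CD replicate 4 and KD replicate 3, was chosen after seeing the data.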

Additional observations from a re-analysis of the deposited data

Results flagged for a closer look

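Of 44 values examined on CD by Dixon's test for a library far from the others (31 members and 13 marker lists), 2 passed the 95% critical value for 4 libraries, where chance alone gives about 2.2. Nrp1 was high in CD replicate 4, with a gap of 0.933 of the range on the log2 CPM scale. The summed oligodendrocyte markers were low in CD replicate 3, with a gap of 0.895 of the range. The test was applied to CD only, so the KD replicate 3 values of Nrp2, Sema7a and Plxnc1 carry no such comparison.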

How the results depend on the processing

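Sema5a was higher on KD in all 19 alternatives, with log2 fold changes from 0.37 to 0.63 and raw p under 0.05 in each, but its raw p was above 0.01 in 4, without CD replicate 2 (0.0107), KD replicate 1, or KD replicate 3 (0.0135), and in the 5 libraries left without CD replicate 4 and KD replicate 3 (0.0197). Members with a raw p of at most 0.01 were 4 with the replicate block, Plxna3, Plxnc1, Sema3e and Sema5a. With Xist as covariate they were also 4, Plxnc1, Sema3e, Sema5a and Sema7a. They were 0 in the 5 libraries, and 0 to 2 with 1 library left out. At a raw p under 0.05 they were 2 with the filter of at least 1 count, 3 with the likelihood-ratio test, 3 with DESeq2, 5 with the replicate block, 6 with Xist and 2 in the 5 libraries, and 1 to 4 with 1 library left out. Over all tested genes the share at or under 0.01 was 1.16% with the block, 1.31% with Xist and 1.34% without CD replicate 3. Their share under 0.05, 3.19% in the main test, was 5.89% with the block, 6.52% with Xist, 7.38% without CD replicate 3 and 2.54% in the 5 libraries. It was 3.02% with the filter of at least 1 count, 3.14% with the likelihood-ratio test and 3.68% with DESeq2. With 1 library left out it ran from 1.63% to 7.38%. Plxnc1 had a raw p of 0.0013 with the block. Pathway genes under 0.05 were 7 with the replicate block, 5 with Xist and 4 in the 5 libraries, and 1 to 2 with 1 library left out. Members without overlap were 1 with TMM-scaled libraries, 4 in the 5 libraries, and 2 to 5 with 1 library left out. The matching share of all tested genes was not counted in these settings. Smaller groups separate more often by chance, so these counts cannot be read as a rise over the main test. The cause of these changes was not tested. The labels do not say whether replicate numbers mark pairs. Deviations of same-numbered libraries correlated by 0.251, 0.195 and 0.098 in replicates 1, 2 and 3. Differently numbered libraries were not compared, so these values cannot decide on pairing. The block is given as an alternative and not beside the results.

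The sign of 14 members held in every alternative and that of 17 turned at least once, none of these past a raw p of 0.05 in the main test. The replicate block was fitted without CD replicate 4, so its values do not separate the block from the loss of that library. With the replicate block the log2 fold change was 0.073 for Nrp1, 0.0065 for Plxna4, 0.092 for Plxnb2, 0.095 for Sema3b, -0.036 for Sema3c, -0.021 for Sema4f and 0.087 for Sema6d. In the 5 libraries it was 0.15 for Nrp1, -0.056 for Nrp2, 0.021 for Plxnb2, 0.17 for Plxnb3, -0.022 for Plxnd1, -0.020 for Sema4f, -0.20 for Sema4g and 0.023 for Sema6d. It was 0.0024 for Plxna1 and -0.028 for Sema3c with limma-voom, -0.047 for Sema3c with Xist, and -0.00099 for Sema4f with library size alone. With 1 library left out it ran from -0.40 to 0.082 for Nrp1, -0.40 to 1.25 for Nrp2, -0.081 to 0.069 for Plxna1, -0.12 to 0.094 for Plxnb2, -0.47 to 0.046 for Plxnb3, -0.35 to 0.10 for Sema3b, -0.31 to 0.28 for Sema3c, -0.056 to 0.10 for Sema4b, -0.015 to 0.093 for Sema4c, -0.085 to 0.12 for Sema4d, -0.11 to 0.12 for Sema4f, -0.31 to 0.57 for Sema4g, -0.14 to 0.39 for Sema5b, -0.16 to 0.0046 for Sema6b and -0.29 to 0.092 for Sema6d.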
